A study of Mus musculus with 106 samples.

Results

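Distal H3K27ac regions of HSC are stretches of the mouse genome that carried strong acetylation of histone H3 at lysine 27, away from the start of any protein-coding gene. They did so in nearly every library of marrow enriched for precursors and in almost no library of macrophages. They were found by taking the 30000 strongest intervals of each of 35 H3K27ac peak lists, merging them over lists, and keeping merged regions with no protein-coding start site within 2.5 kb of either edge that were held by at least 10 of 12 HSC lists and at most 2 of 23 macrophage lists. A list held a region when one of its own 30000 strongest intervals overlapped it. This left 504 regions out of 88465 distal and 124087 merged regions in all. The regions were thus chosen by their H3K27ac in HSC and in macrophages, so their strength in those lists is a description and was given no test.

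ChIP-seq of H3K27ac and H3K4me3 was performed on cells from C57BL/6J mice that were untreated controls or had been made diabetic, assigned to these groups when 12 to 14 weeks old. Diabetic mice received streptozotocin, a toxin of pancreatic beta cells, by injection at 42 to 45 mg/kg on each of 5 days, and were used 6 weeks later when blood glucose exceeded 13.9 mmol/L. HSC is the submitters' name for bone marrow from which cells bearing CD3, CD4, B220, Ter119 or Gr1 were removed. The libraries thus hold a mixture enriched for precursors and not purified stem cells, and other cells without these markers may remain. Bone marrow-derived macrophages (BMDM) were grown for 7 days in medium with 5 mmol/L glucose. They were then left in medium or stimulated with LPS at 100 ng/mL and IFN-γ at 10 ng/mL. The study's general macrophage protocol gives 16 h for this step, and its ChIP-seq methods state no time. Each mark had 6 control and 6 diabetic HSC lists, 6 control and 5 diabetic unstimulated BMDM lists, and 6 control and 6 diabetic stimulated BMDM lists.

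Enhancers are stretches of DNA that bind transcription factors and raise the activity of genes that may lie far away along the chromosome. Histones beside active enhancers and active promoters carry H3K27ac, whereas H3K4me3 is concentrated at promoters. In blood precursors, enhancers are bound by a shared group of factors that includes GATA2, RUNX1, TAL1, LYL1, LMO2, ERG and FLI1, and macrophage enhancers are established by PU.1 together with C/EBP, AP-1 and IRF factors.

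The label was checked against H3K27ac at promoters of marker genes, a promoter being 1000 bp to either side of a start site and present when it met one of the 30000 strongest intervals. The promoter of Kit, the stem cell factor receptor, was present in 11 HSC and 3 BMDM lists, and that of Gfi1b, a repressor gene of red cell and platelet precursors, in 11 and 0. The long-term stem cell markers Ly6a, Slamf1 and Tek were present in 1, 1 and 0 HSC lists. Erythroid promoters were also present, with Hba-a2 and Hbb-bs in 12 HSC and 0 BMDM lists, and granule genes of neutrophil precursors were present in fewer lists, with Mpo in 8 HSC lists and Elane in 5. The macrophage genes Csf1r and Cd68 were present in 7 HSC and 23 BMDM lists, C1qa in 0 and 19. Most promoters of the shared precursor group were no distinction, since Runx1, Tal1, Lyl1, Lmo2 and Fli1 were each present in 12 HSC and 23 BMDM lists. Gata2 was present in 12 and 18, and Erg, which did differ, in 9 and 4. Promoters of 22 of 24 other stem and progenitor transcription factors, 8 of 16 stem and progenitor surface genes and 16 of 22 erythroid genes were present in at least 10 HSC lists, against 13, 4 and 6 in at least 19 BMDM lists. Of the lists of other cell types, promoters present in at least 10 HSC lists were 3 of 23 macrophage genes (10 in at least 19 BMDM lists, and 10 of the 23 in 0 HSC lists), 5 of 14 megakaryocyte, 3 of 16 neutrophil precursor, 2 of 15 B lineage, 4 of 17 T and NK cell, 1 of 12 mast cell, 3 of 9 dendritic and 2 of 11 stroma genes, where it was 11271 of all 21911 genes. The HSC lists thus carried precursor and erythroid marks together, and a smaller share of one cell type cannot be told apart from less acetylation per cell.

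The regions can be read against the DNA beneath them. Each sequence shown is the 300 bp window about the middle of the H3K27ac summits in the strongest distal HSC region nearest to each of 6 stem cell transcription factor genes, because these genes tie the regions to known regulators of blood precursors. Sequences are the plus strand of GRCm38, read 5′ to 3′. Capitals mark letters of the GATA, RUNX, PU.1 and E-box motifs, of which a search found GATA and E-box letters in these windows.
Prdm16 chr4:154542824-154543123: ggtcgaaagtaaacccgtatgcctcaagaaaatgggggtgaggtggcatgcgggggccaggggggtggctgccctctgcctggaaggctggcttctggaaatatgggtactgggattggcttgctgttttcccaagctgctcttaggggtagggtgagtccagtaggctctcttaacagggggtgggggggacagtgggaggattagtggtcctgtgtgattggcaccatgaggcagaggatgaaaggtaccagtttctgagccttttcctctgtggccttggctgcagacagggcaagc
Cbfa2t3 chr8:122712395-122712694: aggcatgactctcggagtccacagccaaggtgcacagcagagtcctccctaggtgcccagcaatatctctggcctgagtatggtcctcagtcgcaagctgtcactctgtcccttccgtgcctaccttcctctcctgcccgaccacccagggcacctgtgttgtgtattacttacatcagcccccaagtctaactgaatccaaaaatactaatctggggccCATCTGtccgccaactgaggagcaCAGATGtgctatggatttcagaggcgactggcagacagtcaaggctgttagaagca
Erg chr16:95438818-95439117: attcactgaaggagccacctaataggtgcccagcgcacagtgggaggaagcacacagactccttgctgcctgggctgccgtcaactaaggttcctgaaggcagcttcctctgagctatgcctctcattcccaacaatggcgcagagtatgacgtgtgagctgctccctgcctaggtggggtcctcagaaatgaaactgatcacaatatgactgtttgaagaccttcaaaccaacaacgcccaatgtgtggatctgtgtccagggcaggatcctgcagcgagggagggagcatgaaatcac
Bcl11a chr11:24128387-24128686: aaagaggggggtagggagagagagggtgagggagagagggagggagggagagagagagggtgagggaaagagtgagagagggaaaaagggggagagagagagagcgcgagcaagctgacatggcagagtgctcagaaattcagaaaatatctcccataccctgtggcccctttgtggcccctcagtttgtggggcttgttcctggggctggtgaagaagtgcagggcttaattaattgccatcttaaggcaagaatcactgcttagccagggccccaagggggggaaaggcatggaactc
Gata2 chr6:88164495-88164794: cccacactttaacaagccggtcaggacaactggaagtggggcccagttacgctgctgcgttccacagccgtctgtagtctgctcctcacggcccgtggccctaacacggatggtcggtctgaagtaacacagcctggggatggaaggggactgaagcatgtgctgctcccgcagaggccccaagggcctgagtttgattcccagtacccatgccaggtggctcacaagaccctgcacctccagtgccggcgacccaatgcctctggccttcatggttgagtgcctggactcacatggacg
Lmo2 chr2:103931636-103931935: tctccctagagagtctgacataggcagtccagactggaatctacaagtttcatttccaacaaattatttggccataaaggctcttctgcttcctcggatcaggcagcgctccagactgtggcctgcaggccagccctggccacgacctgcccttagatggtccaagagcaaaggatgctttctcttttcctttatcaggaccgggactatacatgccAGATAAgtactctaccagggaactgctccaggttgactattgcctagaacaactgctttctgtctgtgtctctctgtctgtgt

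Prdm16, Cbfa2t3 and Bcl11a encode transcription regulators of stem and progenitor cells, and Erg, Gata2 and Lmo2 encode members of the shared precursor group. The Lmo2 window held 1 GATA match and the Cbfa2t3 window 2 E-boxes, while the windows at Prdm16, Erg, Bcl11a and Gata2 held none of these letters. The search looked on both strands for the GATA motif AGATAA, the RUNX motif TGTGGT, the PU.1 motif GAGGAAGT, the C/EBP motif TTGCNNAA, the AP-1 motif TGANTCA, the IRF motif GAAANNGAAA, the E-box motifs CAGCTG and CAGATG, and the composite of an E-box edge and GATA bound by TAL1 complexes, which contains the GATA letters. A match is a description of the letters and no evidence of binding, and a window without one says nothing of the factor.

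GATA letters were in 11.3% of the 504 windows, compared with 8.09% of windows of the same length in all distal regions, 4.49% in 602 distal BMDM regions and 5.38% in 967 distal regions shared by at least 33 of 35 lists. Distal BMDM regions were held by at least 19 of 23 BMDM and at most 2 of 12 HSC lists. RUNX letters were in 22.6%, nearly the share in BMDM regions (22.3%) and all distal regions (20.7%), with 14.8% in shared regions. PU.1 letters were in 3.37% against 1.16% of BMDM, 1.96% of shared and 1.91% of all distal regions, and E-boxes in 45.0% against 40.7%, 34.1% and 40.3%. Of the letters linked to macrophage enhancers, PU.1 was thus above its BMDM share at 300 bp, in 17 of 504 against 7 of 602 windows. C/EBP, AP-1 and IRF were near theirs at that length. C/EBP was in 5.95% against 5.81%, AP-1 in 7.54% against 7.97% and IRF in 3.37% against 2.66%. All distal regions gave 8.68%, 6.78% and 2.24% for these. The composite was in 0.198%, 0.166%, 0.207% and 0.226% of distal HSC, BMDM, shared and all distal windows. Windows of 1000 bp, added after seeing the data, kept GATA highest in distal HSC regions, at 48.4% against 31.1%, 25.7% and 37.7%. They put AP-1 at 25.8% in distal HSC regions against 40.2% in BMDM regions. The other macrophage letters also changed place, with PU.1 in 12.3% against 10.6%, C/EBP in 30.6% against 24.3% and IRF in 14.9% against 10.6%. All distal regions gave 7.50%, 30.7% and 12.2% for these 3.

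**Figure D1:**
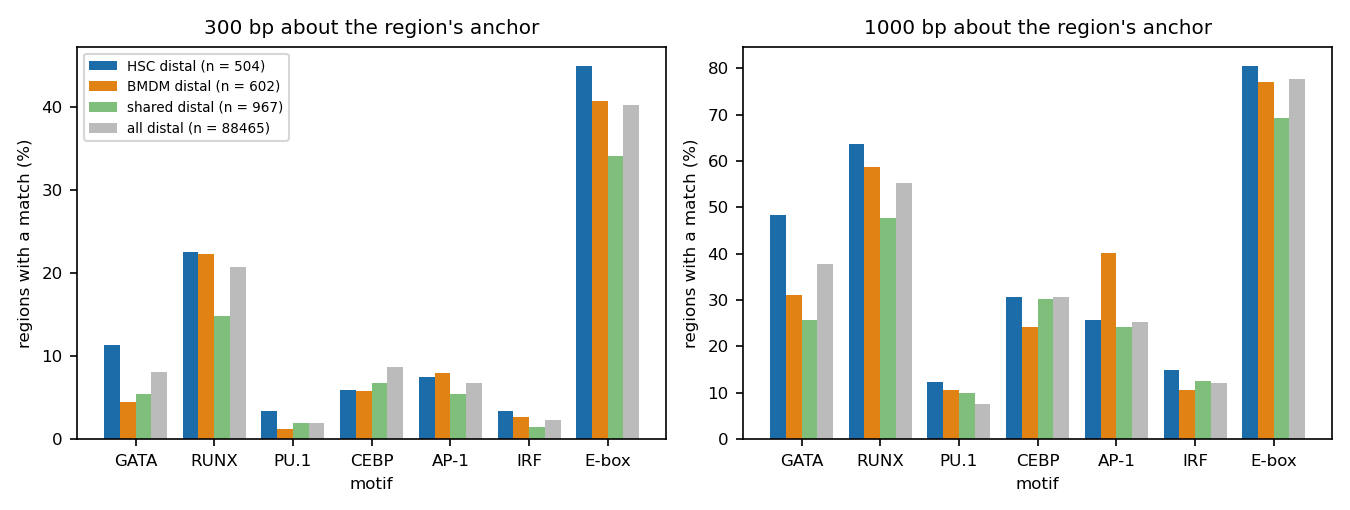
Share of windows (percent, vertical axis) holding each set of motif letters in distal HSC, distal BMDM, shared and all distal regions, for windows of 300 bp and 1000 bp. GATA letters were in 11.3% of 300 bp windows of distal HSC regions and 4.49% of those of distal BMDM regions, while RUNX shares were 22.6% and 22.3%.

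Distal HSC regions had a median width of 1750 bp (interquartile range 1117 to 2446, full range 373 to 8154), compared with 2105 bp in BMDM regions, 2188 bp in shared regions and 560 bp over all distal regions. A merged region can only widen as more lists add intervals to it, so width was not independent of the selection. The part of this in the differences of width was not tested. Together the distal HSC regions covered 1002 kb. By its centre, 236 regions (46.8%) lay in an intron, 216 of them in an intron of the nearest gene, 244 (48.4%) were intergenic, 12 lay in coding exons, 11 in UTRs and 1 in another exon. Introns took 51.7% of BMDM and 28.6% of shared regions, and 46.7% of all distal regions.

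The nearest protein-coding start site was a median of 17.5 kb away (interquartile range 9.12 to 38.1), close to 15.6 kb in BMDM regions, 19.2 kb in shared regions and 18.5 kb over all distal regions. A start lay within 10 kb of 144 regions (28.6%) and within 50 kb of 402 (79.8%), and 39 regions (7.74%) were over 100 kb from any, the farthest by 666 kb. A start site of a noncoding gene lay within 2.5 kb of 78 regions (15.5%), against 12.0% of BMDM, 33.6% of shared and 10.2% of all distal regions. Median GC content was 55.0%, as in all distal regions, with 56.7% in BMDM and 62.3% in shared regions. Chromosome X held 4 of the regions.

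The regions clustered in part: 158 had another distal HSC region within 50 kb, in 62 clusters of at least 2, of which 8 held at least 4 and the largest held 8. They were nearest to 406 genes, of which 342 had 1 region, 47 had 2 and 17 had 3 or more. The genes with most regions were Haao and Elf1 with 7 each, Cd47 with 6, Zdhhc19 with 5, and Smad7, Gse1, Ccdc88c and Pitpnc1 with 4 each. With 3 each there were 9 genes, of which Zfp831 and Dapp1 had the best ranked regions. Promoters of 323 of the 406 genes were acetylated in at least 10 HSC lists and of 272 in at least 19 BMDM lists. All 21911 protein-coding genes gave 11271 and 10567. High shares were not particular to these genes, since the 492 genes nearest to distal BMDM regions gave 361 and 401. The 770 genes nearest to shared regions gave 592 and 581. Nearness does not show which gene a region acts on.

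The Haao cluster ran over chr17:83953317-84005616, wholly intergenic. Haao, an enzyme of the kynurenine pathway, starts 107319 to 156661 bp away, and Zfp36l2, which encodes an RNA-binding protein that promotes mRNA decay, lies on the other side at 183323 to 232665 bp. Its median ranks over the 12 HSC lists, where 1 is the strongest interval of a list and a region outside the strongest 30000 is called unranked, ran from 10045 at chr17:83983547-83988687 to 25422 at chr17:83957445-83959687. At any deposited strength, BMDM intervals met the 7 regions in 1 to 17 of 23 lists.

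Elf1, an ETS family transcription factor of blood cells, held its 7 regions within the gene at chr14:79518467-79536565, 6 by intron and 1 by UTR, at 3534 to 20611 bp from its nearest start. Their median ranks ran from 12890 to 21609, and strong H3K4me3 lay over the first in 4 HSC lists and over the other 6 in 0. Cd47, whose product signals to macrophages not to engulf the cell, had 4 intergenic regions 8064 to 31821 bp upstream, 1 in a UTR and 1 in an intron, over chr16:49768293-49841241, with median ranks from 10956 to 15721. None of the 6 was held in H3K4me3 by any HSC or BMDM list.

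Zdhhc19, a protein palmitoyltransferase gene, carried 5 regions at chr16:32505433-32521088. The start of Tfrc, the transferrin receptor gene through which erythroid cells take up iron, lay 88955 to 102481 bp to their right. The best of them, chr16:32507529-32512512, had a median rank of 11168. Gse1 regions all lay in introns, as did those of Ccdc88c, which binds Dishevelled in Wnt signalling, of the lipid transfer gene Pitpnc1 and of Dapp1, an adaptor of lymphocyte receptor signalling. The widest of these was 7205 bp, in Ccdc88c at chr12:100954138-100961342. Smad7, an inhibitor of TGF-β signalling, was nearest to 4 regions, 3 of which lay inside the neighbouring gene Ctif, and 3 intergenic regions lay 29532 to 44657 bp upstream of Zfp831.

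**Figure D2:**
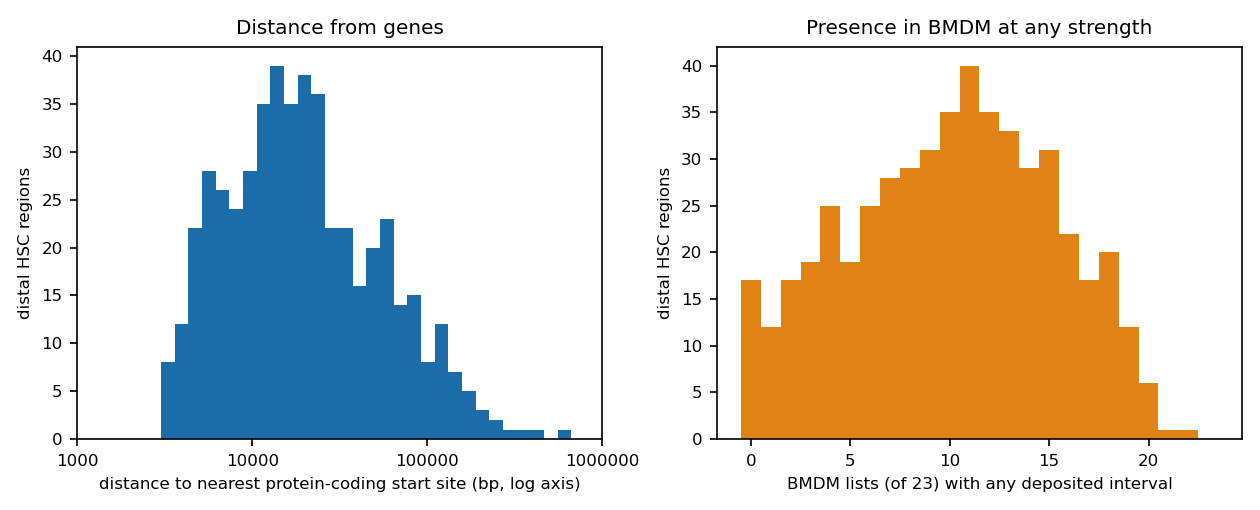
Number of distal HSC regions (vertical axes) by distance to the nearest protein-coding start site (bp, log axis) and by the number of 23 BMDM lists with a deposited interval of any strength. The median distance was 17.5 kb and the median number of BMDM lists was 10.

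Strength within the chosen set was graded. The set held 192 regions in exactly 10 HSC lists, 175 in 11 and 137 in 12, with median ranks of 19227, 16279 and 13728. Just outside, 242 distal regions held by 9 HSC and at most 2 BMDM lists had a median rank of 20388, and 106 that met the HSC limit but were held by 3 BMDM lists had one of 15385. Of the 504, 267 were held by 0 BMDM lists, 142 by 1 and 95 by 2, and 73 were in all 12 HSC and 0 BMDM lists.

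Absence from the strongest 30000 was not absence from macrophages. At any deposited strength, 464 regions met an interval in all 12 HSC lists, the median region met one in 10 of 23 BMDM lists, and 207 met one in at least 12. There were 17 regions with no deposited interval in any BMDM list and 0 with one in all 23. Among the 15 best ranked, the region nearest to the water channel gene Aqp4 had none in BMDM, at a median HSC rank of 8987.

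By library, control HSC lists held 433, 456 and 478 of the regions (lowest, median, highest; 458 ± 16.0, SD, n = 6), and diabetic HSC lists held 438, 460 and 476 (457 ± 15.7, SD, n = 6). The ranges overlapped almost completely, but the demand for 10 of 12 HSC lists limited how far they could differ. Unstimulated BMDM lists held 7, 11.5 and 39 in control and 11, 15 and 20 in diabetic mice, and stimulated lists 7, 9.50 and 15 in control and 11, 12.5 and 35 in diabetic mice. Counting any deposited interval, HSC lists met 491 to 504 regions and BMDM lists 48 to 368. List length differed in the same lists, from 51162 to 139452 intervals in HSC and 52470 to 176559 in BMDM, and its part in these counts was not tested.

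Some BMDM libraries of both disease groups stood apart from their labels at Nos2, the nitric oxide synthase gene induced by LPS plus IFN-γ. Its promoter ranked 4938 and 8154 in unstimulated control replicates 5 and 6, stronger than the 10608 to 60220 of replicates 1 to 4. In stimulated control cells it was weakest in replicates 3 and 5, at 31618 and 15517, against 3030 to 10185 in the other 4. Stimulated diabetic replicate 1 ranked it 14308, weaker than the 10639, 9995 and 11510 of unstimulated diabetic replicates 4, 5 and 6. Because all BMDM lists counted alike in the selection, these labels did not enter it. Unstimulated control replicates 5 and 6 and stimulated control replicate 5 were then left out, a choice made after seeing the data. Stimulated control replicate 3, the weakest at Nos2, was kept, as was stimulated diabetic replicate 1, so Nos2 ranks alone do not give this choice. The omission gave 538 regions. All 504 were among them, which was nearly fixed in advance, since dropping BMDM lists can only lower the number that hold a region.

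**Figure D3:**
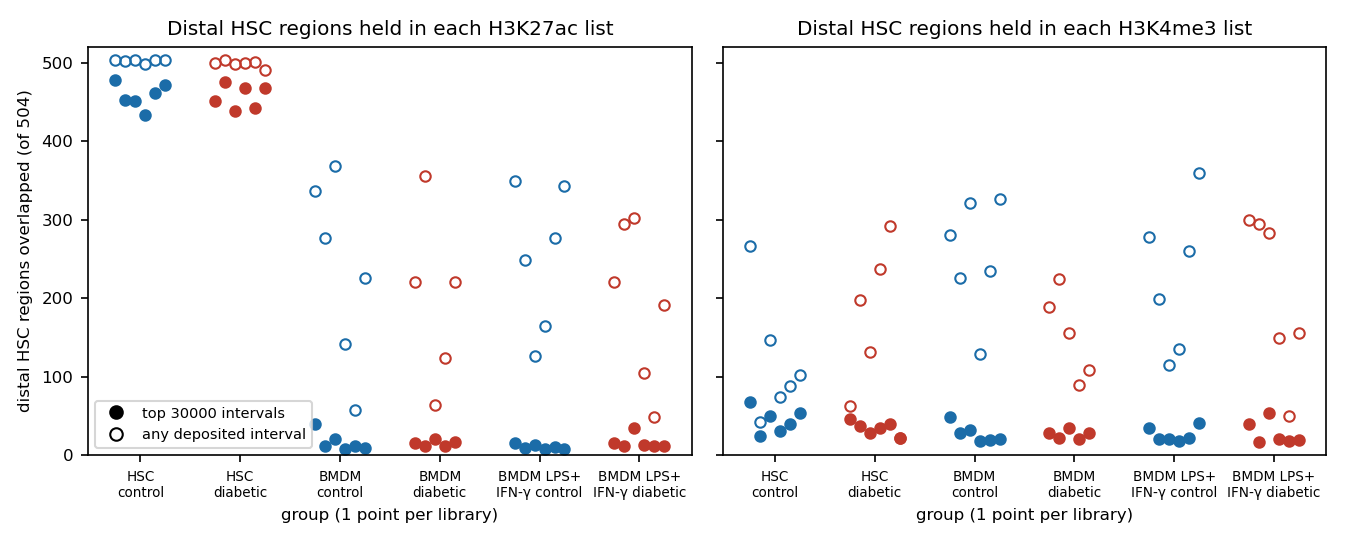
Number of the 504 distal HSC regions held by each list (vertical axis), by cell, stimulation and disease group, for H3K27ac and H3K4me3; each point is 1 library, filled for the 30000 strongest intervals and open for any deposited interval. HSC lists held 433 to 478 regions in H3K27ac, a contrast fixed by the selection, and 22 to 67 in H3K4me3.

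The strongest region by median rank was chr17:28927703-28932295, 4593 bp wide and 12265 bp from Pxt1, a testis gene, with ranks of 3485, 5862 and 8095 in control and 3969, 7010 and 9525 in diabetic HSC. It was in all 12 HSC lists. The next, chr7:66196448-66198253, lay 65119 bp from the kinase gene Lrrk1 and ranked 4098, 6391 and 9266 against 3498, 8875 and 10880. Ntn4, which encodes a netrin of the basement membrane, held an intronic region at chr10:93678974-93680095 that ranked 6285, 8969.5 and 12012 in control and 4295, 8655 and 16227 in diabetic HSC. In each of these the disease groups overlapped.

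A region at chr8:84729313-84735323 was nearest to G430095P16Rik but lay in an intron of Nfix, a transcription factor gene, with a median rank of 9494. Brd3, a bromodomain reader of acetylated histones, had an intronic region at chr2:27486009-27487607 with ranks of 7056, 9648 and unranked in control and 8033, 10333 and 18536 in diabetic HSC, so 1 control library missed it. Slc4a1, the band 3 anion exchanger of red cells, had a region 8497 bp upstream at chr11:102372191-102377209 that ranked 7091, 10170 and 16502 against 4985, 9985 and 12290. Ache, the acetylcholinesterase gene that red cells also express, had one 22695 bp upstream at chr5:137264388-137265260 with a median rank of 9956.

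The remaining 8 of the 15 best ranked were nearest to Aqp4, Phyhip (9135.5), Zfp831 (9769.5), Gm3383 (9771), 1700017B05Rik (9825.5), Smad7 (9892.5), Haao (10045) and Gabbr2, a GABA receptor gene (10056). The Gm3383 region, chr14:5812086-5813506, lies among near-identical gene copies, where reads may be placed uncertainly. It also carried strong H3K4me3 in 11 of 12 HSC and 16 of 23 BMDM lists.

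Among gene lists, which were drawn up with results of these data known, the shared precursor factors had 3 of 7 genes nearest to a distal HSC region (Erg, Gata2 and Lmo2, 5 regions), and other stem and progenitor factors had 4 of 24 (5 regions), among them Prdm16, Cbfa2t3 and Bcl11a. Erythroid genes had 3 of 22 (Rhd, Slc4a1 and Sptb, 3 regions), T and NK cell genes 3 of 17 (Tcf7, Klrb1c and Cd2, 3 regions) and neutrophil precursor genes 1 of 16 (Fcnb, 2 regions). Over all protein-coding genes it was 406 of 21911. No gene of the stem cell surface list was nearest to one (0 of 16), nor of the megakaryocyte (0 of 14), B lineage (0 of 15), mast cell (0 of 12), dendritic (0 of 9), macrophage (0 of 23) or stroma (0 of 11) lists, or of 6 genes measured in the study (Il6, Il1b, Hk1, Nos2, Retnla and Chil3). The distal BMDM regions were nearest to 1 of the 7 shared factors and 2 of the 24 other factors. They were also nearest to 1 of 22 erythroid, 0 of 17 T and NK cell and 3 of 23 macrophage genes. Distal regions shared by nearly all lists were nearest to 1 of 7 shared factors and 3 of 24 other factors. For them it was 0 of 22 erythroid and 3 of 17 T and NK cell genes, as many of the latter as for distal HSC regions. Over all genes it was 492 for BMDM and 770 for shared regions. Both a distal HSC and a distal BMDM region were nearest to 18 genes.

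The Lmo2 region, chr2:103931510-103933253, lay 25604 bp upstream of Lmo2, whose product bridges GATA and TAL1 in one complex. It ranked 13344, 19234 and 23295 in control HSC and 10635, 17714 and unranked in diabetic HSC, where 4 of 6 lists held it. The Gata2 region, chr6:88163969-88164958, was 29427 bp upstream and ranked 11696, 25306 and unranked in control and 13512, 15270 and unranked in diabetic HSC. The Erg region, in an Erg intron at chr16:95438213-95439963, ranked 11090, 13882 and unranked against 12630, 19911 and unranked. It was held by 0 BMDM lists and met a weaker interval in 4. At all 3 genes the disease groups overlapped, and at least 1 list of one group missed the region.

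Prdm16 had the best rank of the other factors, in an intron at chr4:154540332-154544629, with 9534, 11472 and 16879 in control and 8982, 14390 and 18925 in diabetic HSC. The Cbfa2t3 region, 12526 bp upstream of this corepressor gene at chr8:122709059-122714211, ranked 11120, 15810 and 23124 against 11323, 13070 and 17044. BMDM intervals of any strength met the Prdm16 region in 15 lists and the Cbfa2t3 region in 16. Bcl11a, a repressor of fetal globin genes, had an intronic region at chr11:24127215-24130769 with 11220, 14384 and 26866 against 8514, 18528 and 27264.

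Of the erythroid genes, Rhd, a blood group protein gene, ranked 10970, 13438 and unranked in control and 8672, 11178 and 14779 in diabetic HSC at an intronic region, chr4:134868045-134871091. Sptb, which encodes the spectrin beta chain of the red cell skeleton, ranked 10565, 19966 and 27684 against 10437, 19020 and 23605 at chr12:76669211-76672436. Tcf7, a T cell factor gene, ranked 8586, 16446 and 22990 against 11142, 16330 and unranked at chr11:52271732-52275413. The other lymphoid regions were weaker, with median ranks over all HSC lists of 20734 near Klrb1c and 22242 near Cd2. The best Fcnb region, chr2:28062681-28063895, lay 21597 bp from this gene for a secreted lectin of myeloid cells and ranked 7192, 11180 and 24628 against 6462, 10482 and 20996. All disease groups overlapped at these genes.

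**Figure D4:**
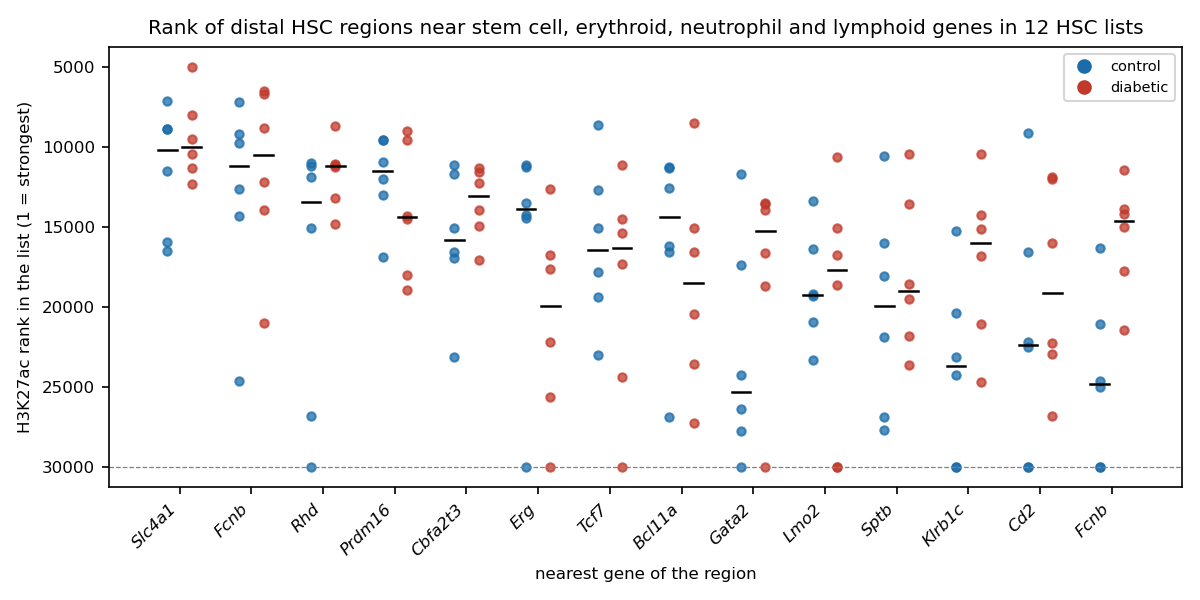
H3K27ac rank in each of 12 HSC lists (linear axis with the strongest at the top; 1 is the strongest interval and points on the dashed line are unranked) of distal HSC regions nearest to genes of the gene lists, Fcnb with both of its regions; each point is 1 library, control or diabetic, and black bars are medians. The disease groups overlap at every gene shown, and median ranks over all 12 lists run from 9985 near Slc4a1 to 22242 near Cd2.

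The disease comparison was independent of the selection in that disease labels were not used, but the demand for 10 of 12 lists left at most 2 misses to either group and so limited how far the groups could differ. Diabetic and control lists missed 281 and 278 list-region pairs. There were 42 regions in 6 control and 4 diabetic lists and 40 in the reverse pattern. The libraries are not stated to come from separate animals, so p values measure the spread between these libraries.

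Ranks were compared on the log2 scale with limma over every merged region held by at least 6 of 12 HSC lists, which included 504 of 504 distal HSC regions, and a positive difference means stronger in diabetic HSC. None of the 504 passed a Benjamini-Hochberg adjusted p of 0.05, and neither did any of the 21610 tested regions (0% called). At an unadjusted p under 0.05 there were 21 distal HSC regions, 6 stronger in diabetic and 15 stronger in control HSC, where 2.83% of all tested regions (612) passed. The median difference was -0.03, in a range from -0.68 to 0.73 with a median standard error of 0.27, and 234 regions were stronger in diabetic HSC. With list length as a covariate the median was -0.12 and 169 were, while the median over all tested regions moved from -0.00 to 0.05. Leaving out 1 library put the median between -0.08 (without diabetic replicate 6) and 0.00 (without control replicate 1). No distal HSC region had disease groups that did not overlap, against 0.120% of all regions tested.

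The Cd47 region in a UTR, chr16:49803816-49804816, had the smallest p among regions stronger in control HSC. It ranked 10506, 11896 and 15741 in control and 14472, 20074 and 22576 in diabetic HSC, a difference of -0.64 (SE 0.21, 95% interval -1.07 to -0.21, unadjusted limma p 0.00568, adjusted p 1.00). The groups overlapped, and the other 5 Cd47 regions gave differences from -0.34 to 0.00. In the same direction were regions at Srgn, the proteoglycan of storage granules (chr10:62502749-62504544, -0.68, SE 0.23), at Itm2b (-0.64), at Elf1 (chr14:79534374-79535063, -0.59) and at Srek1ip1 (-0.58), all with a limma adjusted p of 1.00. The other 6 Elf1 regions gave -0.50 to -0.02, the 7 of the Haao cluster -0.05 to 0.37 and the 5 at Zdhhc19 -0.25 to 0.10.

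In the other direction stood the second Fcnb region, chr2:28067059-28070310, with ranks of 16302, 24831 and unranked in control and 11417, 14593 and 21417 in diabetic HSC, a difference of 0.65 (SE 0.22, 95% interval 0.18 to 1.11, unadjusted limma p 0.00849, adjusted p 1.00). The better ranked Fcnb region gave 0.18 (SE 0.32). Regions at Snx3 (0.73, SE 0.32), Gm10198 (0.60), Rpa1, a single-stranded DNA binding protein gene (0.54), and Ctcfl, a paralogue of CTCF (0.51), had limma adjusted p values of 1.00 as well. A second Ctcfl region gave -0.33.

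**Figure D5:**
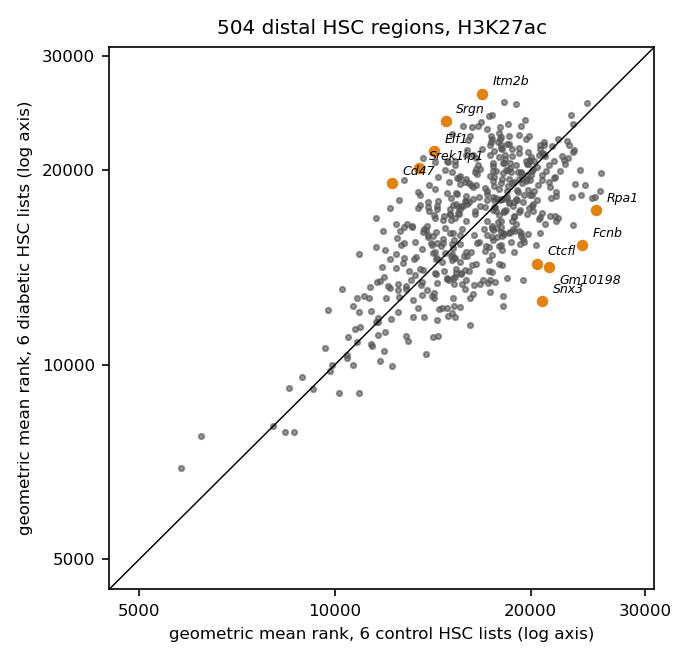
Geometric mean H3K27ac rank of each of the 504 distal HSC regions over 6 control (horizontal) and 6 diabetic (vertical) HSC lists, both log axes, with low ranks strong, so that points above the line were stronger in control HSC; orange points are the 10 regions named from the test. Differences ranged from -0.68 to 0.73 on the log2 scale and 0 regions passed the limma test after adjustment.

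H3K4me3 had no part in the selection. Of the 504 regions, 288 met none of the 30000 strongest H3K4me3 intervals in any HSC list, 14 did so in at least 6 of 12 and 3 in at least 10, nearest to Gm3383, Zfp978 and Pck1. Control HSC lists held 24, 44.5 and 67 of the regions and diabetic lists 22, 35.5 and 46, with overlap. The diabetic library that held 22 had only 13730 H3K4me3 intervals. As a share, HSC lists held 4.37% to 13.3% of distal HSC regions, 2.41% to 10.8% of all distal regions and 1.99% to 9.97% of distal BMDM regions. The 967 shared distal regions gave 28% to 64.2%. Within single lists the order varied. Control replicate 1 held 13.3% of distal HSC and 8.94% of all distal regions, and diabetic replicate 3 held 5.56% and 10.4%. These sets differed in width, and the part of width in the shares was not tested. Of the 14, 1 was among the 78 regions with a noncoding start site within 2.5 kb and 13 were among the other 426. The regions shown at Erg, Bcl11a, Gata2, Lmo2 and Sptb were held in H3K4me3 by 0 of 12 HSC lists.

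BMDM lists held fewer at the median, with overlapping ranges and no test, at 18, 24.5 and 49 in unstimulated control and 20, 28 and 34 in unstimulated diabetic cells, and 18, 21.5 and 41 and then 17, 20 and 53 after stimulation. In all, 187 regions were held in H3K4me3 by at least 1 BMDM list and 216 by at least 1 HSC list.

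HSC and unstimulated BMDM were compared in H3K4me3 with limma, with disease as a covariate, over distal regions held by at least 6 of the 23 lists, so that 31 of the 504 regions and 12420 regions in all were tested. Of all those tested 4.77% were called, 0.950% (118) stronger in HSC and 3.82% (474) stronger in BMDM. One distal HSC region was called, chr4:147406901-147407703, in a family of zinc finger genes 45991 bp from Zfp978. It ranked 1135, 5313 and unranked in HSC and 14166, unranked and unranked in BMDM and was held by 11 of 12 against 5 of 11 lists, a difference of 2.09 (SE 0.37, 95% interval 1.35 to 2.84, limma adjusted p 0.000166). The groups overlapped, the genes there are close copies to which reads may be assigned uncertainly, and the call was lost when ranks followed fold enrichment, were limited to 10000 or came from diabetic mice alone.

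A region near Pck1, the gene of a gluconeogenic enzyme, at chr2:173171181-173172306 ranked 3187, 8807.5 and unranked in HSC and 6625, 20033 and unranked in BMDM (0.94, SE 0.32, limma adjusted p 0.0678). It passed when any 1 of 5 libraries was left out, with differences of 1.01 to 1.06, and was -0.05 by fold enrichment. Regions at Phyhip, Gabbr2 and Ddx50 gave 0.49, 0.49 and 0.25, with limma adjusted p of 0.0950, 0.123 and 0.212. The region 94592 bp upstream of Runx3, a transcription factor gene of lymphoid cells, gave -0.53 (chr4:135025216-135026904, limma adjusted p 0.133), followed by Fam49a (-0.46), Gse1 (-0.13), Ndfip1 (-0.27) and Rnf144a (-0.23) with limma adjusted p of 0.249 to 0.453. Unadjusted, 6 of the 31 regions passed where 22.3% of all tested did, and 0 had groups that did not overlap, where 0.137% of all did.

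At any deposited strength the picture differed. An interval of H3K4me3 met 429 of the 504 regions in at least 1 HSC list and 0 in all 12. By Fisher's exact test on presence of any interval, 35 of 299 regions tested were held by more BMDM than HSC lists and 0 by more HSC lists, where 29.4% of 42447 distal regions were held more in BMDM. H3K4me3 list length moved the same way, at 13730 to 145750 intervals in HSC and 66146 to 212718 in unstimulated BMDM, and its part in these 35 calls was not tested.

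Diabetic and control HSC could be compared in H3K4me3 at only 14 of the 504 regions, among 19224 merged regions tested. None of the 14 passed the limma test after adjustment (0% called over all), 1 had an unadjusted p under 0.05 where 3.38% of all did, and 0 had groups that did not overlap where 0.151% did. That one lay near Klf9 (-0.54, unadjusted limma p 0.0306). Differences ran from -1.01 near Pck1 (unadjusted limma p 0.0621) to 0.27 near Usp10, with -0.65 near Zfp978, -0.39 near Ezr and -0.34 near Ercc4, and 0.22 near Gabbr2, 0.21 near Sox5, 0.20 near Fam49a and 0.14 near Rhd. Leaving out 1 library moved these to between -1.02 and -0.23 near Zfp978, 0.01 and 0.44 near Gabbr2, 0.08 and 0.33 near Fam49a, and -0.04 and 0.24 near Rhd. All had a limma adjusted p of 1.00.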

How the data were processed

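ChIP-seq peak lists were read for 70 of 106 samples, and 36 input samples had no list of their own. Peaks were called by the authors per library against the input of the same cells, from 50 bp single reads. The submitters' processing notes name Trim Galore 0.3.3, cutadapt 1.8, FastQC 0.11.3, Bowtie2 2.2.6, Picard 2.18.14 and 2.19.2, bedtools 2.19.1 and MACS2 2.2.7.1, and the builds GRCm38 and mm10. In the deposited lists a ratio gives the fold enrichment of each summit over its local background. The deposited −log10 p, which ranked intervals, and the deposited −log10 q rate each summit within its own library. Rank within a list takes out the scale of the list and not its quality, and the lists give no read totals, so depth is unknown and no counting interval is given.

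The 9511856 summits formed 7828714 intervals, 0 of which ran past the ends of 21 GRCm38 chromosomes, and genes came from GENCODE M21 (21911 protein-coding genes with 93459 start sites). For each list the 30000 intervals of highest −log10 p were taken, overlapping intervals were merged, and the next whole number was given as the rank outside them. Ranks on the log2 scale were tested with limma 3.58.1 in R 4.3.3 (trend, Benjamini-Hochberg over all regions tested, call under 0.05, intervals of 95%), after a filter on regions held by at least 6 lists, and the code was tested on simulated data. Python 3.11.15, numpy 2.4.6, pandas 2.3.3, scipy 1.17.1 and pysam 0.24.0 were used. Samples were grouped as labelled. Some genes that the naming rule covers are not reported here. The regions and gene lists were chosen with earlier results of these data known. Regions named are the 15 of best median HSC rank, those at the 10 genes nearest to most regions (ties by best rank), those at genes of the precursor, blood lineage and lymphoid lists, and the 5 of smallest adjusted p in each direction of each test. Alternatives were other limits of strength (20000 and 10000), rank by fold, any deposited interval, 50% overlap, other start sites or 5000 bp, no filter, list length as covariate, Fisher's exact test, a replicate block, windows of 200 bp and leaving out libraries.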

Additional observations from a re-analysis of the deposited data

Results flagged for a closer look

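In 56 groups of values from 4 to 6 libraries, 5 had 1 library far from the others by Dixon's criterion, which chance gives in about 1 in 20 groups. Stimulated diabetic BMDM replicate 3 held 35 of the distal HSC regions in H3K27ac, where the other libraries of its group held 11 to 15. Control HSC replicate 4 met 498 of the 504 regions at any deposited strength, where the others met 502 to 504. The same library had the Erg region outside the strongest 30000, where the others ranked it 11090 to 14431. Control HSC replicate 3 ranked the Bcl11a region 26866, against 11220 to 16557 in the others. Diabetic HSC replicate 6 had the Gata2 region outside the strongest 30000, against 13512 to 18694.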

How the results depend on the processing

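The number of distal HSC regions followed the limit of strength: 288 with the top 20000 intervals (259 nearest genes, 144 regions overlapping the 504), 41 with the top 10000 (40 nearest genes, 24.4% in introns, 2 overlapping the 504) and 887 when any deposited interval counted as held, of which 46 were among the 504. Ranking by fold gave 370, of which 309 overlapped the 504, and leaving out 1 library, run for 17 of the 35 (12 HSC and 5 unstimulated diabetic BMDM), gave 511 to 592, since the same number of misses was allowed among fewer lists. Counting any deposited interval, H3K27ac lists met on average 502 regions in control and 499 in diabetic HSC, 234 and 197 in unstimulated and 251 and 193 in stimulated BMDM, and H3K4me3 lists met 120 and 157, 253 and 153, and 224 and 205, which follows from the wider definition. Shares of windows with motif letters moved with the window: at 200 bp GATA 6.15%, RUNX 14.7%, C/EBP 3.17%, AP-1 4.96% and E-box 32.9%, and at 1000 bp GATA 48.4%, RUNX 63.7%, PU.1 12.3%, C/EBP 30.6%, AP-1 25.8%, IRF 14.9%, E-box 80.6% and the composite 1.59%.

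In H3K4me3, distal HSC regions that differed between HSC and BMDM numbered 0 by fold, 0 with the rank limit of 10000, 0 in diabetic mice alone and 35 by Fisher's exact test. Leaving out 1 library gave 1 to 2, the second being the Pck1 region, called without unstimulated diabetic BMDM replicate 6, unstimulated control BMDM replicate 4, diabetic HSC replicates 1 or 5, or control HSC replicate 1. Without unstimulated control BMDM replicates 5 and 6, left out after seeing the data, it stayed at 1. Over all regions the 592 calls became 0 by fold, 38 with the rank limit, 185 with no filter, 78 with list length as covariate, 12497 by Fisher's exact test, 139 in control and 75 in diabetic mice alone, and 434 to 742 without 1 library; the cause was not tested. Differences reversed for Pck1 (-0.05) and Fam49a (0.13) by fold, for Rnf144a (0.04) with stimulated BMDM, and in the disease comparison of H3K4me3 for Rhd, which ranged from -0.04 (without diabetic replicate 1) to 0.24. Both disease comparisons gave 0 calls among distal HSC regions under each alternative tried for them, Fisher's exact test among them, and so did the added omission of the 2 HSC libraries with the shortest lists, run for H3K27ac only.

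Replicate numbers gave no steady pairing of diabetic with control HSC libraries. Those of one number deviated together with r of -0.248 to 0.243 in H3K27ac and -0.238 to 0.11 in H3K4me3. In each mark 1 of 6 correlated best with its own number. HSC and unstimulated BMDM of one number gave r of -0.094 to 0.12 in control and -0.0526 to 0.0781 in diabetic mice in H3K4me3. Control replicates 3 and 4 there correlated best with their own number. Weak correlation does not show whether libraries share an animal. With a replicate block, 0, 1 and 0 distal HSC regions were called in the disease H3K27ac, cell type H3K4me3 and disease H3K4me3 comparisons, and 498 regions in all in the cell type comparison. Depth is unknown, a region outside the strongest 30000 may still be acetylated, and nearest genes are a matter of distance only.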

Other observations

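Outside the 504 regions, some distal regions held by at most 2 BMDM lists were found in mostly 1 disease group of HSC. There were 33 held by at least 5 control and at most 1 diabetic list and 23 with the reverse pattern, of which 5 and 2 were held by all 6 lists of the group. They were selected on that difference and were given no test.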
